A study of Mus musculus with 11 samples.

Results

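The messages of haemoglobin and of its haem supply were followed through 11 mouse hippocampi with a set of 5 genes, as markers of blood left in the tissue. The set was named by gene symbol and not by a cut on measured values, but with earlier results of these data known. It holds the adult alpha-globin genes Hba-a1 and Hba-a2, the adult beta-globin genes Hbb-bs and Hbb-bt, and Alas2, which encodes the erythroid form of the enzyme that starts haem synthesis. All 5 were found by Ensembl identifier among the 38293 genes of the count tables, and all 5 passed the filter of at least 10 counts over the 11 mice. The mice were wildtype F1 offspring of 129S6/SvEv and C57BL/6J parents, 14 weeks old at sacrifice. RNA of the whole hippocampus was sequenced from 6 CD mice (3 males and 3 females), whose dams ate 2.3 mg folic acid per kg diet for 6 weeks before mating, and from 5 FD mice (2 males and 3 females), whose dams ate 40 mg folic acid per kg diet. All dams ate the control diet from mating on, so the offspring themselves were never fed the high dose. The labels do not say which mice shared a dam, so p-values measure the spread between these mice, some of which may be littermates.

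Haemoglobin is a tetramer of 2 alpha-type and 2 beta-type chains, each holding a haem group that binds oxygen. Mammalian red blood cells lose their nucleus but circulate for a while, as reticulocytes, with the globin and Alas2 messages made before. Blood that stays in the vessels of a dissected tissue therefore brings these messages with it, and low globin expression in neurons has also been described. The methods describe cervical dislocation and flash freezing of the dissected hippocampi and mention no perfusion. In RNA from a whole tissue, fewer red blood cells and less RNA per red blood cell cannot be told apart, and the part of each source of the reads was not tested.

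The 2 alpha genes and the 2 beta genes are nearly copies of each other, which matters because reads with more than 1 alignment were not counted. Hba-a1 (ENSMUSG00000069919) lies on chromosome 11 from 32283511 to 32284465 and Hba-a2 (ENSMUSG00000069917) downstream of it from 32296489 to 32297298, both on the plus strand of GRCm38. Hbb-bt (ENSMUSG00000073940) lies on chromosome 7 from 103812524 to 103813996 and Hbb-bs (ENSMUSG00000052305) from 103826534 to 103828096, both on the minus strand. In the GENCODE M21 transcripts the coding sequences of the alpha pair, each 426 bases long, differed at 1 base, C381T from Hba-a1 to Hba-a2. The coding sequences of the beta pair, each 441 bases long, also differed at 1 base, C417T from Hbb-bs to Hbb-bt. Positions are counted from the first base of the start codon. The exonic 50 bases around each difference are shown because a read must cover the base in capitals to be placed within these coding sequences.

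Hba-a1: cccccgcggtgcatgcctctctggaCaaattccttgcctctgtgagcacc
Hba-a2: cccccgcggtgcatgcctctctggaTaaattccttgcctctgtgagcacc
Hbb-bs: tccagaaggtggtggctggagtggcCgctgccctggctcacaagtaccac
Hbb-bt: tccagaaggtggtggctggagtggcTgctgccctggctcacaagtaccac

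These stretches lie on GRCm38 at chr11:32284318-32284367 (Hba-a1, plus strand), chr11:32297135-32297184 (Hba-a2, plus strand), chr7:103826668-103826717 (Hbb-bs, minus strand) and chr7:103812659-103812708 (Hbb-bt, minus strand). Cut into all windows of the read length of 50 bases, the Hba-a1 transcript had 211 of 650 windows (32.5%) found in no other annotated transcript, and Hba-a2 had 66 of 505 (13.1%). For Hbb-bs the number was 198 of 579 (34.2%) and for Hbb-bt it was 273 of 654 (41.7%). Within the coding sequence only 46 of 377 windows of either alpha gene and 25 of 392 windows of either beta gene were unique, and the others sit in the untranslated ends. Alas2 (ENSMUSG00000025270, chromosome X, 150547375 to 150570638, plus strand) has no such twin, and 1713 of its 1988 windows (86.2%) were unique. Its other windows are shared with Apex2 and Mir3620, which the annotation places on the opposite strand of the same region. The strand setting and annotation release of the counting are not stated, so how reads in that overlap were assigned is not known.

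C57BL/6J mice carry the beta-globin haplotype that contains Hbb-bs and Hbb-bt, and 129S6/SvEv mice carry another haplotype with the genes Hbb-b1 and Hbb-b2. The F1 mice therefore have 1 chromosome of each kind. Hbb-b1 and Hbb-b2 were not found among the named genes of the tables, and reads from the 129S6/SvEv chromosome could be counted only where they aligned to the C57BL/6J reference. How many did was not tested.

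The promoters of the set are shown as a description of the reference sequence. Whether they have a part in the levels across mice was not tested. The sequences are those of RefSeq on GRCm38.p6, which matched all 5 genes, with capitals for 4 short motifs on either strand. They are the motif CACCC, the motif CCAAT, the motif TATAA and the motif GATA.

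Hba-a2: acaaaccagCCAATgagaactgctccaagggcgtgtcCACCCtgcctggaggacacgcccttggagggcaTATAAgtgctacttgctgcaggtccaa
Hbb-bs: caCACCCtggtaagggCCAATctgctcaca
Hbb-bt: aaCACCCtggcATTGGCCAATctgctcaga
Alas2: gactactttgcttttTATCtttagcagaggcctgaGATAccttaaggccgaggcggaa

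They lie at chr11:32296392-32296488 (plus strand), chr7:103827991-103828020 (minus strand), chr7:103813985-103814014 (minus strand) and chrX:150547317-150547374 (plus strand). The same 97 bases precede the RefSeq start of Hba-a1, identical at all 97 positions, but end directly at its start, while the start of Hba-a2 lies 3 bases farther on. The stretches shown are parts of the 100 bases before the start, so some matches lie outside them. These include CACCC of Alas2 at -40, TATAA of Hbb-bs at -29 and of Hbb-bt at -28, and GATA of Hbb-bs at -59. In the 100 bases before the start, CACCC was found in all 5 genes, against 26.8% of 27025 promoters in the RefSeq table. CCAAT was found in the 4 globin genes and not in Alas2, against 19.6% of all promoters, and TATAA likewise, against 10.7%. The letters GATA, the core recognised by the erythroid factor Gata1, were found in the windows of Hbb-bs and Alas2 only, against 25.3% of all promoters. None of the motifs is contained in another. In the stretch shown for Hbb-bt a CCAAT on the reverse strand directly precedes one on the forward strand, and its 100 bases hold a further match outside that stretch. A match is a description of the letters and not a binding site.

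The count tables held between 11737554 and 44447006 counts on genes per mouse, and 3 counts were worth 0.0675 CPM in the deepest and 0.256 CPM in the shallowest library (CPM is the count of a gene scaled to a common library total). The list fixed for hippocampal neurons summed to between 5482 and 6315 CPM, most of it from the general neuronal genes Snap25 and Slc17a7. Among its markers of hippocampal fields, named after their values were seen, Prox1 of the dentate gyrus lay between 128 and 163 CPM, and Wfs1 and Fibcd1 of CA1 between 124 and 209 CPM and between 137 and 211 CPM, so that all were present in every mouse. The 5 genes together took 8322 of 257220491 counts (0.00324%). Hbb-bs took 68.8% of the set's counts, Hbb-bt 10.3%, Hba-a1 8.99%, Hba-a2 6.51% and Alas2 5.43%.

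Hbb-bs, the most counted member, was read in every mouse. In the 6 CD mice its TMM-normalised level was 17.1 CPM in male 1, 23.3 CPM in female 1, 23.2 CPM in male 2, 35.9 CPM in female 2, 22.6 CPM in male 3 and 8.32 CPM in female 3. In the 5 FD mice it was 24.1 CPM in female 1, 16.3 CPM in male 1, 34.2 CPM in female 2, 21.4 CPM in male 2 and 24.8 CPM in female 3. CD female 3 was the lowest mouse and CD female 2 the highest, with FD female 2 close to it, and the values of the 2 groups overlapped over most of their range. The counting intervals of the extremes lay far apart, from 6.93 to 9.92 CPM in CD female 3 (125 counts) and from 32.6 to 39.5 CPM in CD female 2 (421 counts; exact Poisson, 95%, counting error only).

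Hbb-bt, the second adult beta chain of this haplotype, ran from 0.932 CPM through a median of 3.04 CPM to 6.32 CPM in CD mice. In FD mice it was 4.07 CPM in female 1, 2.24 CPM in male 1, 6.17 CPM in female 2, 2.97 CPM in male 2 and 3.44 CPM in female 3. The same CD female 3 was lowest and the same CD female 2 highest, 6.78-fold apart, and the groups again overlapped.

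The alpha chains are encoded on another chromosome. Hba-a1 ran from 1.26 CPM through a median of 2.91 CPM to 5.04 CPM in CD mice, and was 3.37, 1.52, 4.19, 2.62 and 3.98 CPM in FD female 1, male 1, female 2, male 2 and female 3. Hba-a2 ran from 0.732 CPM through a median of 2.06 CPM to 4.01 CPM in CD mice, and was 2.44, 1.43, 3.35, 1.77 and 2.48 CPM in the FD mice in the same order. Both alpha genes were lowest in CD female 3 and highest in CD female 2, as the beta genes were, and highest among FD mice in female 2.

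Alas2, on the X chromosome, is the enzyme of the set. It ran from 0.333 CPM through a median of 1.85 CPM to 4.01 CPM in CD mice, and was 1.77, 1.71, 2.74, 1.48 and 1.57 CPM in FD female 1, male 1, female 2, male 2 and female 3. Its span was the widest of the 5 genes, 12.1-fold between CD female 3 and CD female 2, but the low end rests on 5 counts.

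**Figure D1:**
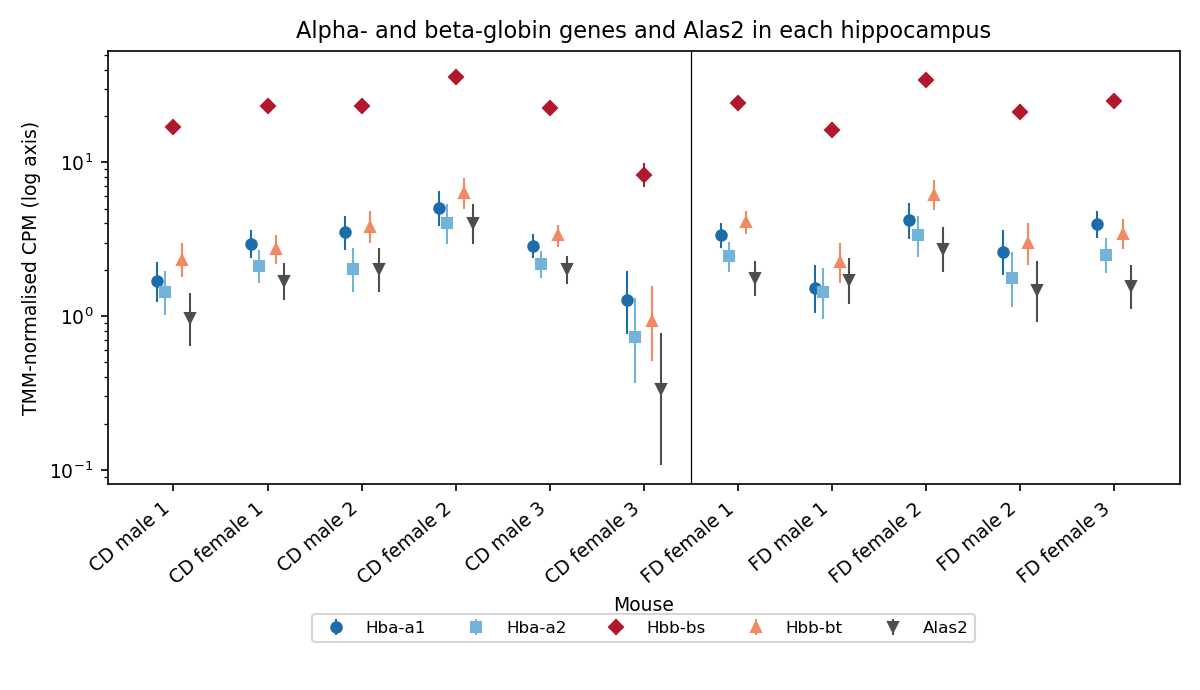
TMM-normalised CPM (log axis) of Hba-a1, Hba-a2, Hbb-bs, Hbb-bt and Alas2 in each of the 6 CD and 5 FD mice. Points are single mice and bars are exact 95% Poisson intervals of the count, which cover counting error only. All 5 genes are lowest in CD female 3 and highest in CD female 2, and the groups overlap.

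Levels of different genes can be set side by side only per length. Per kilobase of transcript, the mean over the 11 mice was 36.4 CPM for Hbb-bs, 4.96 CPM for Hbb-bt, 4.29 CPM for Hba-a1, 3.93 CPM for Hba-a2 and 0.907 CPM for Alas2. Per 100 unique windows of 50 bases, the means were 11.5 CPM for Hbb-bs, 3.30 CPM for Hba-a2, 1.42 CPM for Hba-a1, 1.28 CPM for Hbb-bt and 0.108 CPM for Alas2. Hbb-bs stood first and Alas2 last on both scales, while Hba-a2 moved from the fourth place to the second. The counts of the pairs are thus uncertain as levels of each copy, since the reads shared by a pair were left out.

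The 4 globin genes kept nearly the same proportions in every mouse. The share of Alas2, the member with the fewest counts, varied most in relative terms, but the intervals of its lowest and highest share overlapped. The share of Hbb-bs in the set's counts lay between 65.0% in CD female 2 (95% Clopper-Pearson interval 61.2 to 68.6%) and 72.7% in CD male 1 (69.1 to 76.1%). It was 71.8% in CD female 3 (64.5 to 78.4%), the mouse with the lowest level, so the intervals of the share overlapped between the mice with the lowest and the highest summed level, which were 4.78-fold apart (11.6 and 55.3 CPM). The ratio of Hbb-bs to Hbb-bt counts lay between 5.54 in FD female 2 and 8.93 in CD female 3, and the ratio of Hba-a1 to Hba-a2 counts between 1.07 in FD male 1 and 1.74 in CD male 2. Over the table of 5 genes by 11 mice the chi-square was 45.1 on 40 degrees of freedom, that is 1.13 per degree of freedom, where counting error alone gives about 1. The share of Alas2 lay between 2.87% in CD female 3 (95% Clopper-Pearson interval 0.94 to 6.58%) and 7.38% in FD male 1 (5.22 to 10.1%), and was 7.25% in CD female 2 (5.38 to 9.53%). For the 4 globin genes the chi-square was 28.4 on 30 degrees of freedom. Each gene taken alone, against an equal CPM in all mice, gave between 5.89 (Hba-a2) and 40.4 (Hbb-bs) per degree of freedom. These values describe the tables and carry no p-value.

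**Figure D2:**
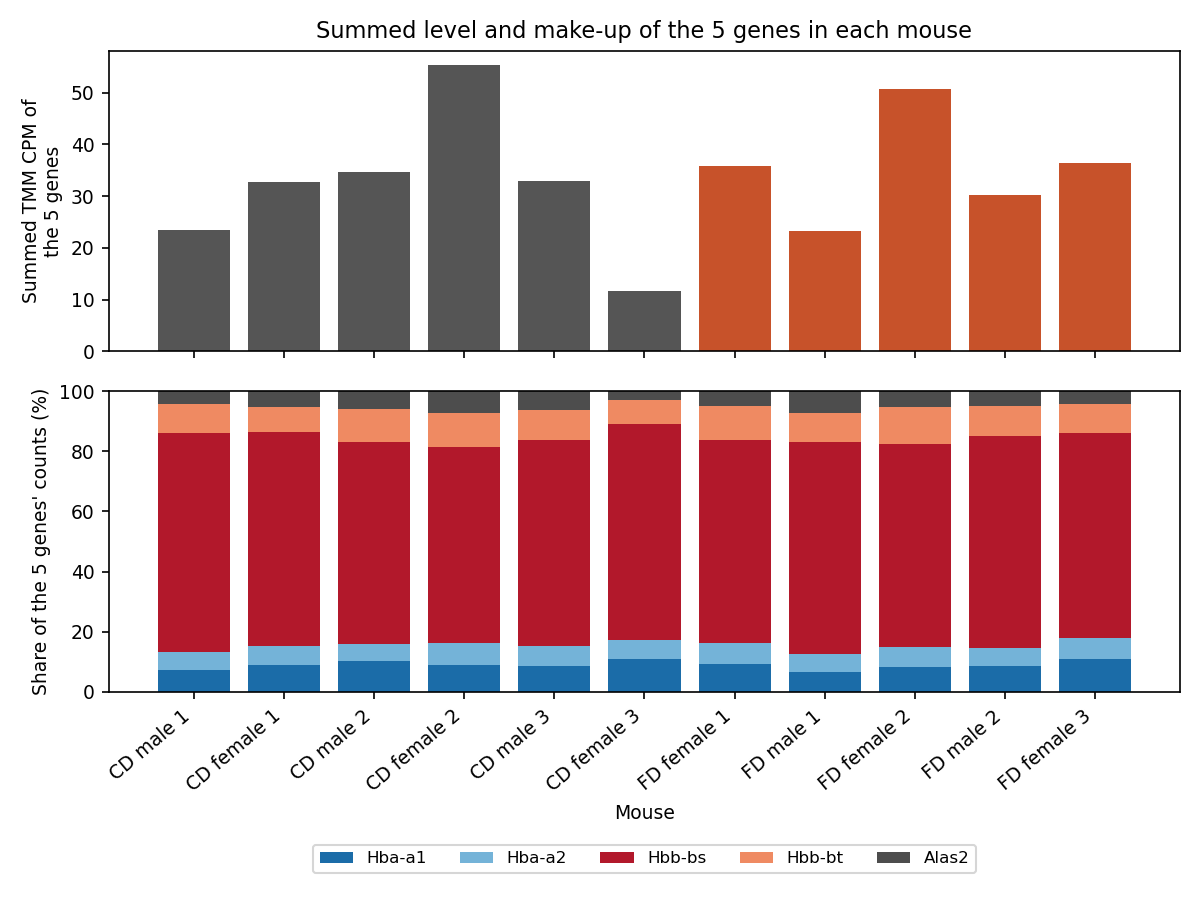
The upper panel shows the summed TMM-normalised CPM of the 5 genes in each mouse (CD grey, FD orange) and the lower panel the share of each gene in the set's counts in percent. The sum runs from 11.6 CPM in CD female 3 to 55.3 CPM in CD female 2, while the Hbb-bs share stays between 65.0% and 72.7%.

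Across the 11 mice the log2 CPM of Hbb-bs was correlated with that of the other 4 genes, in a family of 18 relations with permutation p-values adjusted together. Pearson's r was 0.985 for Hba-a2 (Spearman's rho 0.973, permutation p = 1e-05, adjusted p = 9e-05), and the 1e-05 is the smallest p that 100000 permutations can give. It was 0.981 for Hbb-bt (rho 0.909, permutation p = 2e-05, adjusted p = 0.00012) and 0.923 for Hba-a1 (rho 0.973, permutation p = 1e-05, adjusted p = 9e-05). It was 0.944 for Alas2 (rho 0.700, permutation p = 0.00021, adjusted p = 0.000945). The rank correlation of Alas2 had an adjusted permutation p of 0.0918 and so did not pass 0.05. Without the 2 mice farthest from the median of Hbb-bs, CD female 3 and CD female 2, r was 0.976 for Hba-a2, 0.936 for Hbb-bt, 0.921 for Hba-a1 and 0.749 for Alas2. The adjusted permutation p of Alas2 was then 0.150, so that its relation rests in part on these mice. Hba-a2 and Hbb-bs, the pair with the highest r, share no window of 50 bases and lie on different chromosomes.

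**Figure D3:**
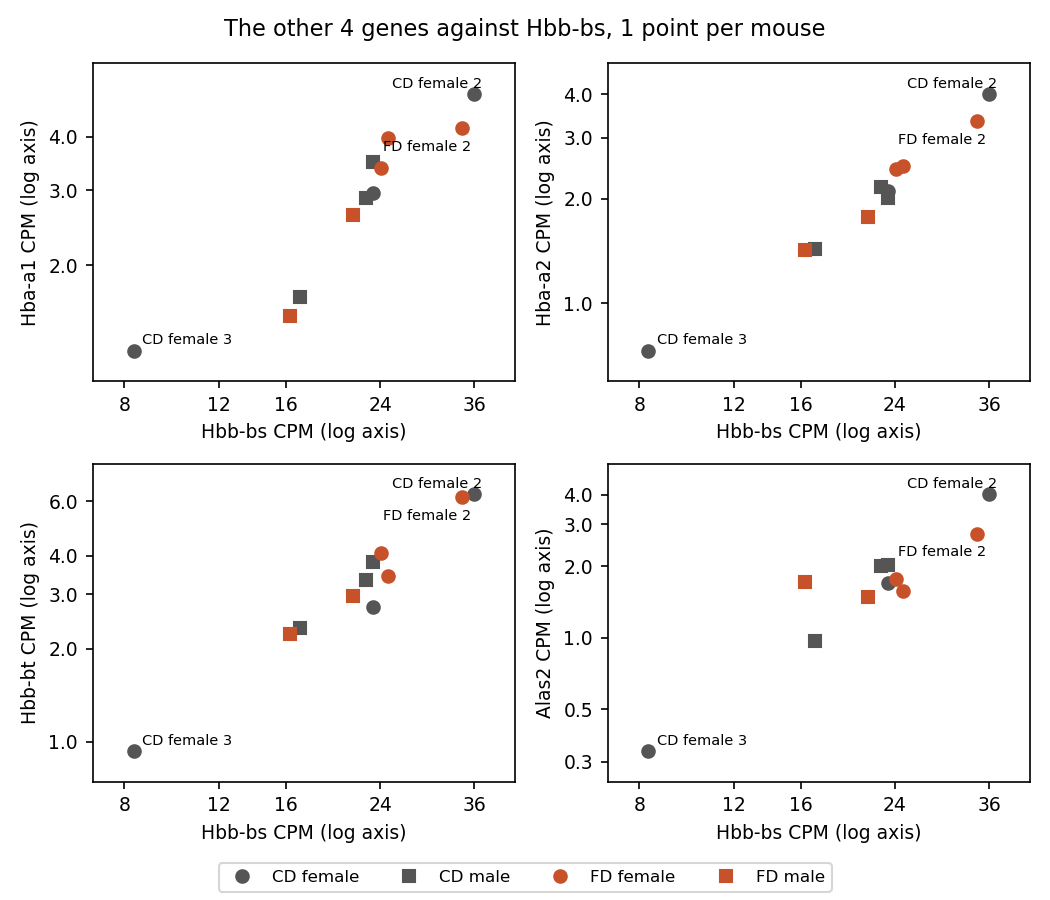
CPM of Hba-a1, Hba-a2, Hbb-bt and Alas2 against the CPM of Hbb-bs, all on log axes, with 1 point per mouse (circles females, squares males, grey CD, orange FD). The points of the globin genes run along a line from CD female 3 to CD female 2, and those of Alas2 scatter more widely between 16 and 25 CPM of Hbb-bs.

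All 14436 other genes whose mean reached 1 CPM were ranked by their correlation with Hbb-bs, and the other 4 genes of the set took the first 4 places. The 8 genes that followed were Pdcd5 (r = 0.912), Pou3f4 (0.879), Tmem29 (0.873), Mak (0.862), Plagl1 (0.857), Ccl28 (0.856), Kctd12b (0.851) and Fam129a (0.848), all over 11 mice. Pou3f4 and Plagl1 are transcription factors, Mak is a protein kinase and Ccl28 a chemokine. All 8 were lowest in CD female 3, and 7 of them spanned between 1.25-fold and 2.22-fold across mice, against 3.98-fold to 12.1-fold for the 5 genes of the set. The exception was Ccl28, with a span of 4.68-fold and as few as 11 counts. Without the 2 mice farthest from the median, Hba-a2, Hbb-bt and Hba-a1 kept places 1 to 3 of the ranking, while Alas2 fell to place 97 and the 8 others to places between 57 and 1302. These correlations were ranked over all genes and are given without p-values.

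The spread of the set between mice was large for its abundance. edgeR's biological coefficient of variation, the replicate spread beyond counting error, was 0.284 for Hbb-bs, 0.302 for Hba-a2, 0.313 for Hba-a1, 0.354 for Hbb-bt and 0.384 for Alas2. Of the genes within 0.5 log2 CPM of each of them, 98.3% (Hba-a1) to 99.8% (Hbb-bs) had a lower value.

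None of the 5 genes differed between FD and CD mice beyond the spread between mice. All 5 log2 fold changes were above 0 but small against their errors, beside 48.16% above 0 over all tested genes. As the 5 genes were correlated across mice, their signs are not separate results. The whole table had 14 of 20589 genes called (0.0680%), all higher in FD mice, at an adjusted p under 0.1 (edgeR's quasi-likelihood test). For Hbb-bs the mean was 21.7 CPM ± 9.04 (SD, n = 6) in CD mice and 24.2 CPM ± 6.52 (SD, n = 5) in FD mice. The log2 fold change of Hbb-bs came to 0.15 (standard error 0.24, 95% interval -0.35 to 0.66, edgeR adjusted p = 1.0). The exact permutation test of the difference in mean CPM gave p = 0.647 (two-sided, 462 splits, smallest possible p 0.00216). The difference in mean, 2.43 CPM with all mice, was -0.255 CPM without CD female 3 and -0.077 CPM without FD female 2.

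For the other beta gene, Hbb-bt, the means were 3.24 CPM ± 1.80 (SD, n = 6) and 3.78 CPM ± 1.495 (SD, n = 5). The log2 fold change of 0.24 (standard error 0.31) was the highest of the set, with a 95% interval from -0.40 to 0.89 and an exact permutation p of 0.604. For Hba-a1 it was 0.16 (standard error 0.28, interval -0.43 to 0.75, exact permutation p = 0.729), and for Hba-a2 0.18 (standard error 0.28, interval -0.42 to 0.77, exact permutation p = 0.712). For Alas2 it was 0.05 (standard error 0.34, interval -0.67 to 0.77, exact permutation p = 0.981). The edgeR adjusted p rounded to 1.0 for all 5 genes. At an unadjusted p under 0.05 edgeR had 0 of 5, beside 534 of 20589 over all genes. DESeq2 called 0 of 5, beside 18 of 20582 over all genes. The intervals leave room for differences of up to about 0.66 to 0.89 on the log2 scale towards FD, and differences within them were not detectable with these mice. The median of the 5 log2 fold changes was 0.16, beside -0.0040 over all 20589 tested genes.

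**Figure D4:**
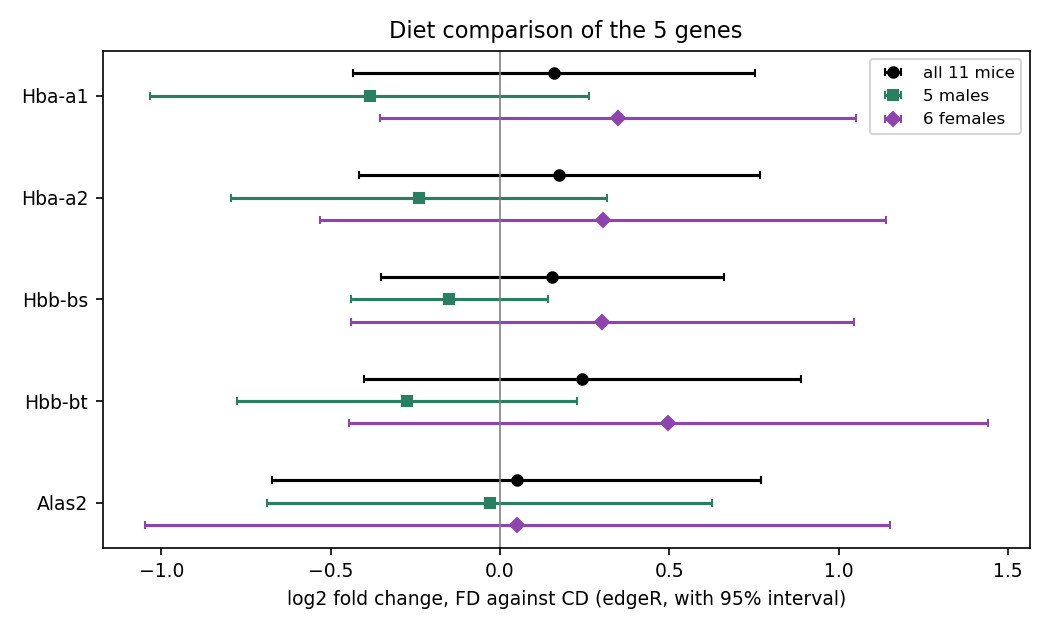
log2 fold change of FD against CD mice with its 95% interval for each of the 5 genes (edgeR), from all 11 mice (black circles), from the 5 males alone (green squares) and from the 6 females alone (purple diamonds). Every interval spans 0, and the males lie below 0 and the females above it for all 5 genes.

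The direction of the diet difference was not the same in the sexes. In males alone (3 CD and 2 FD mice) the log2 fold changes were all below 0, from -0.38 for Hba-a1 to -0.03 for Alas2. In females alone (3 CD and 3 FD mice) they were all above 0, from 0.05 for Alas2 to 0.50 for Hbb-bt. Tested as a difference, the diet by sex term lay between -0.79 (standard error 0.59) for Hbb-bt and -0.10 (standard error 0.70) for Alas2, with an edgeR adjusted p of 1.0 for each. The interaction model called 0 of 20589 genes (0%), with 391 at an unadjusted p under 0.05, and DESeq2 called 0 with 119. The opposite directions are therefore not shown to differ from each other. The female groups also contain both the lowest mouse of the set and the 2 highest.

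Between the sexes, males had the lower mean for all 5 genes, and none was called. With diet in the model, the log2 difference of males from females was -0.48 (standard error 0.26, edgeR adjusted p = 0.317) for Hba-a1 and -0.44 (standard error 0.26, edgeR adjusted p = 0.369) for Hba-a2. It was -0.28 for Hbb-bs, -0.32 for Hbb-bt and -0.21 for Alas2, with edgeR adjusted p-values from 0.511 to 0.787. These values rested strongly on 2 females, as the difference for Hbb-bs was -0.10 without CD female 2 and -0.50 without CD female 3. The whole table had 1257 of 20589 genes called (6.11%) in this comparison, a count that ran from 18 to 3244 with any 1 of the 11 mice left out and was 37 without diet in the model. Males were less spread than females, from 16.3 to 23.3 CPM for Hbb-bs in 5 males against 8.32 to 35.9 CPM in 6 females.

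The rest of the globin family was looked up to see which globins are read in this tissue. The embryonic genes Hba-x, Hbb-bh0, Hbb-bh1 and Hbb-bh2 had 0 counts in all 11 mice, which allows up to 0.0117 CPM over the pooled 257220491 counts (3 counts), and the embryonic Hbb-y had 3 counts in all. These 5 names are given after their values were seen. Cygb, the cytoglobin of many tissues, stood at 68.9 CPM and Ngb, the neuroglobin of neurons, at 3.85 CPM, with r of 0.131 and 0.041 with Hbb-bs. The muscle globin Mb was at 0.256 CPM. Of the 5 genes of this list that were tested, 2 had a log2 fold change above 0 (48.16% of all tested genes) and 0 were called.

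The other listed genes of haem synthesis and breakdown were, as a sum, more even across mice than Alas2. The 2 spreads are not on like terms, as Alas2 is 1 gene with 5 counts in its lowest mouse. Single genes of the list varied more than the sum, such as Blvrb from 5.47 to 8.51 CPM (named after its values were seen). Alas1, the housekeeping counterpart of Alas2, stood at 67.2 CPM in CD and 63.7 CPM in FD mice (log2 fold change -0.08, standard error 0.05) and had r of -0.508 with Hbb-bs. Alad (24.4 CPM), which forms porphobilinogen, had r of -0.299. Fech (70.2 CPM), which inserts iron to form haem, had r of 0.104, and Hmox2 (60.8 CPM), which degrades haem, r of -0.309. The summed level of the 16 genes without Alas2 varied only 1.10-fold across mice, and 0 of the 17 genes tested were called, with a median log2 fold change of -0.02.

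Other genes used as markers of red blood cells ranged from 0 to 80672 counts over all mice. The summed level of the erythroid list, without the set, lay between 514 and 602 CPM in CD mice and between 541 and 606 CPM in FD mice. It was carried by Sptb (311 CPM), Add2 (186 CPM) and Bpgm (68.2 CPM), of which Sptb and Add2 encode membrane skeleton proteins that neurons also make. Its sum had r of 0.517 with Hbb-bs (rho 0.073, adjusted permutation p = 0.285), and -0.212 without CD female 3 and CD female 2. The surface and regulator genes of the list differed widely. Epor, the erythropoietin receptor, had 1140 counts over all mice and the regulator Tal1 had 512. By contrast, Slc4a1, the anion exchanger of the red cell membrane, had 38 counts, Klf1, the erythroid regulator of the beta genes, had 15, and Gata1 had 0. These 5 were picked after their values were seen. Of 25 erythroid list genes in the tables, 15 were tested and 0 were called. Of the 15, 10 had a log2 fold change above 0, beside 48.16% of all tested genes.

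Markers of white blood cells and platelets, the other cells of blood, had few reads. Each sum was carried by a few genes and is not a measure of the number of these cells. The neutrophil list summed to between 6.01 and 7.25 CPM in CD mice and between 4.88 and 7.01 CPM in FD mice, led by Csf3r (4.29 CPM), Mmp9 (1.70 CPM) and Mpo (0.193 CPM). Of its 15 genes, 4 had 0 counts in all mice. The platelet list summed to between 10.7 and 12.6 CPM in CD and between 10.2 and 13.6 CPM in FD mice, led by Itgb3 (3.24 CPM), Gp1bb (2.66 CPM) and Itga2b (2.10 CPM). The lymphocyte and monocyte list summed to between 11.7 and 19.8 CPM in CD and between 12.9 and 15.6 CPM in FD mice, led by Ighm (10.8 CPM), Lck (2.26 CPM) and Trac (0.398 CPM). Only 5 of the 15 neutrophil genes and 10 of the 19 lymphocyte and monocyte genes had enough counts to be tested, and 11 of the 12 platelet genes. Of those tested, 3 neutrophil, 8 lymphocyte and monocyte and 7 platelet genes had a mean under 1 CPM. The correlations of the neutrophil, platelet and lymphocyte and monocyte sums with Hbb-bs were 0.330, 0.165 and -0.440. None passed after adjustment (adjusted permutation p from 0.324 to 0.793). Which cells these reads came from was not tested.

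Vessel walls hold the blood, and their markers were abundant. The endothelial list, led by Slc2a1 (73.2 CPM), Flt1 (64.2 CPM) and Itm2a (56.6 CPM), summed to between 374 and 448 CPM in CD and between 377 and 507 CPM in FD mice. The mural list, led by Rgs5 (93.8 CPM), Vtn (60.0 CPM) and Pdgfrb (25.7 CPM), summed to between 221 and 295 CPM in CD and between 209 and 342 CPM in FD mice. Their sums were highest in FD male 2, where Hbb-bs was at 21.4 CPM, below the CD median. The correlation with Hbb-bs was 0.251 for the endothelial sum and 0.423 for the mural sum (adjusted permutation p = 0.626 and 0.324). All 10 mural genes and 11 of 15 endothelial genes had a log2 fold change above 0, with medians of 0.14 and 0.10, and 0 were called. Over all 20589 tested genes 48.16% were above 0, with a median of -0.0040. The genes of a list come from the same mice, so their signs are not separate results. Among FD mice the mural sum was 342 CPM in male 2 and 209 CPM in female 3.

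The choroid plexus lies beside the hippocampus and can be taken along in dissection. Before sequencing, the study checked the extracted RNA for it by qPCR of Otx2 and Prlr. The list of its markers, led by Kl (23.5 CPM), Ttr (16.1 CPM) and Prlr (4.06 CPM), summed to 95.5 CPM in CD female 3, the mouse lowest in globin, and to 33.1 CPM in FD female 2 and 39.0 CPM in CD female 2, the mice highest in globin. Kl and Prlr were nearly even across mice (21.8 to 25.03 CPM and 3.48 to 4.80 CPM), whereas Ttr lay between 3.35 and 54.7 CPM. Otx2 had 1 count in its lowest mouse and Kcne2 and Kcnj13 had 0, so that reads of the list in a mouse do not by themselves show choroid plexus there (these 3 were named after their values were seen). The sums lay between 39.0 and 95.5 CPM in CD mice and between 33.1 and 48.1 CPM in FD mice. The correlation with Hbb-bs was -0.731 (rho -0.373, permutation p = 0.0188, adjusted p = 0.0677) and did not pass 0.05. Without CD female 3 and CD female 2 it was -0.208, so that it rests on these mice. Whether the amount of choroid plexus has a part in the globin levels was not tested.

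**Figure D5:**
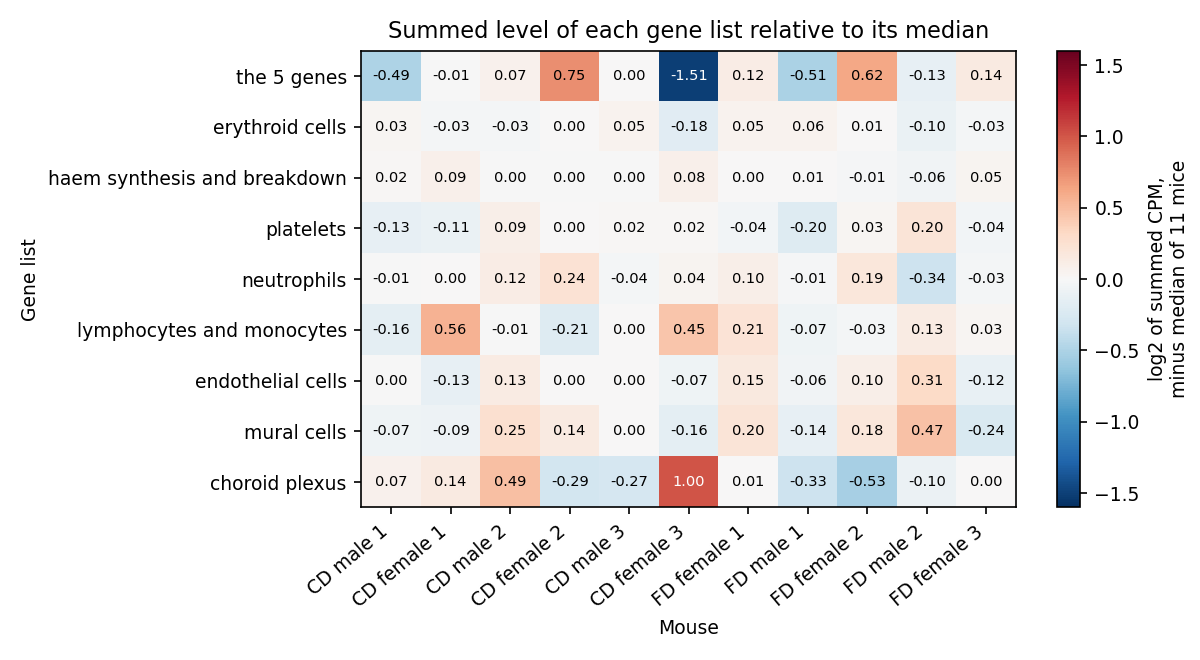
log2 of the summed CPM of each gene list minus its median over the 11 mice, with lists in rows and mice in columns (red above the median, blue below it; the lists are without the 5 genes). The set of 5 genes runs from -1.51 in CD female 3 to 0.75 in CD female 2, and the other widest row, the choroid plexus, is highest in CD female 3.

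Over all 12 lists, 128 genes other than the set were tested and 0 were called for diet by edgeR or by DESeq2. Over all tested genes edgeR called 14 of 20589 and DESeq2 18 of 20582. At an unadjusted p under 0.05 edgeR had 4 of the 128 genes, beside 534 of 20589 over all genes, and 1 of the 4 was higher in FD mice. DESeq2 had 3, beside 365 of 20582 over all genes. Microglial markers summed to between 369 and 431 CPM and iron handling genes to between 1312 and 1802 CPM, led by Fth1 (1172 CPM), the ferritin heavy chain. The iron sum was highest in CD female 3 and had r of -0.559 with Hbb-bs (adjusted permutation p = 0.276). For measures of the libraries, r with Hbb-bs was -0.074 for the total count on genes and 0.117 for the share of reads on no gene (adjusted permutation p = 0.889 and 0.825). CD female 2 and FD female 2, the mice highest in Hbb-bs, had the smallest totals (11737554 and 12953521 counts). CD female 3, the lowest in Hbb-bs, had 14978566 counts.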

How the data were processed

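RNA of whole hippocampi of 11 mice was sequenced as 50-base single-end reads. After trimming, the authors used STAR with mm10 (GRCm38), kept unique alignments and deposited a table of raw counts per mouse, made with featureCounts according to the methods. The annotation release and strand setting are not given in the sources used here. GENCODE M21 named 36345 of 38293 genes (94.91%).

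R 4.3.3 and edgeR 4.0.16 were used: TMM normalisation, genes with at least 10 counts over all mice, quasi-likelihood test of diet without covariates, Benjamini-Hochberg adjustment and the study's threshold of 0.1. DESeq2 1.42.0 was an alternative. CPM values use TMM, and log2 values a prior count of 2. Single values were compared by exact permutation, and correlations by 100000 permutations (threshold 0.05). Total counts per mouse, from 11737554 to 44447006, limit the precision of low genes. The tests were tried on simulated data.

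Members and lists were chosen with earlier results of these data known. Named genes were the set, the 8 genes most correlated with its most counted member, the 3 most abundant of each list, any list gene called, and Alas1, Alad and Fech. Some items covered by this rule or by the lists are not reported here. Others are marked in the text. No sample was excluded. Alternatives covered tool, normalisation, count filter, covariates, block, sexes apart, summed copies and each mouse left out.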

Additional observations from a re-analysis of the deposited data

Results flagged for a closer look

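In FD female 2, Alas2 stood at 2.74 CPM, apart from the other 4 FD mice, of which the nearest was at 1.77 CPM. The gap was 0.771 of the range of the FD group, above Dixon's limit for 5 samples. The globin genes of this mouse were also the highest among FD mice. Of 40 groups of values examined in this way, 1 stood out, and chance marks about 1 in 20.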

How the results depend on the processing

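No member was called for diet, for sex or for their interaction under any alternative that gave an adjusted p, with values of at least 0.808 for diet, 0.16 for sex and 1.0 for the interaction (DESeq2 gave none for Hba-a2 and Alas2 between the sexes), and the exact permutation p of single values stayed at or above 0.206. Of 114 alternative values for diet, 106 kept their direction and 8 reversed. In males alone all 5 log2 fold changes reversed, to -0.384 for Hba-a1, -0.24 for Hba-a2, -0.149 for Hbb-bs, -0.274 for Hbb-bt and -0.0302 for Alas2, and the cause was not tested. With any 1 mouse left out, the log2 fold change for diet lay between 0.0344 and 0.339 for Hba-a1, 0.0397 and 0.369 for Hba-a2, 0.0001 (without CD female 3) and 0.327 (without CD female 2) for Hbb-bs, and 0.0476 (without FD female 2) and 0.455 (without CD female 2) for Hbb-bt. That of Alas2 lay between -0.122 and 0.299 and reversed without CD male 1, CD female 3 or FD female 2. The difference between the sexes lay between -0.458 and 0.121 for Alas2, reversing without CD female 2, -0.687 and -0.277 for Hba-a1, -0.661 and -0.227 for Hba-a2, -0.504 and -0.102 for Hbb-bs, and -0.568 and -0.0706 for Hbb-bt. The difference in mean CPM between diets lay between -0.0721 and 0.682 for Hba-a1, between -0.0513 and 0.604 for Hba-a2, between -0.255 and 5.27 for Hbb-bs, between -0.0657 and 1.15 for Hbb-bt and between -0.282 and 0.454 for Alas2. It reversed for all 5 genes without FD female 2, for all but Hbb-bt without CD female 3, and for Alas2 also without CD male 1 or CD female 1. Alas2, with 5 counts in CD female 3, was not tested under the filter of 10 counts in every mouse. With the replicate block (5 pairs of the same sex and number, CD male 3 left out), the log2 fold changes were 0.166, 0.22, 0.214, 0.308 and 0.198 for Hba-a1, Hba-a2, Hbb-bs, Hbb-bt and Alas2, none called. Calls over all genes were 23 with the block and 4 in the same 10 mice without it, beside 14 in all 11 mice. Deviations from the mean of the diet group correlated at 0.0743 to 0.232 between same-numbered mice, under 0.1 in 1 pair. Both mice of a pair are of the same sex, so differences between the sexes remain in these values. Among mice of their sex in the other group, 7 of 10 mice correlated best with their own number. Each mouse had only 2 or 3 such candidates, and the 2 mice of a pair share 1 correlation, so these are not 10 separate results. The labels do not say what the numbers stand for. The main test did not take them as pairs, and whether same-numbered mice share an origin or handling was not tested. With any 1 mouse left out, calls for diet over all genes lay between 3 and 12. The relation of Hbb-bs with Alas2 no longer passed without the 2 farthest mice (0.749) or as a rank correlation (0.7). Without those mice the sign turned for the other globin genes (-0.0564), the erythroid list (-0.212), lymphocytes and monocytes (0.224) and iron uptake (0.187), and as a rank correlation for iron uptake (0.109) and the share of reads on no gene (-0.1), none of which passed in either form.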
